A study of Mus musculus with 4 samples.

Results

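Imprinted genes are expressed from the copy inherited from one parent, and several of them encode regulators of growth that are active in embryonic and neural tissue. The array reads RNA from both parental copies together, so the expressed copy was not measured here and is given from textbook knowledge. The 10 genes described are growth regulators that lie outside the Igf2 locus and were chosen by name. Of these, 8 are known as paternally expressed (Ndn, Magel2, Plagl1, Peg3, Dlk1, Mest, Peg10 and Nnat) and 2 as maternally expressed (Meg3 and Cdkn1c). By the platform annotation, 9 of the 10 had a probe set with a single gene symbol in the table used here, 24 probe sets in all, out of 13320 genes named in this way. Magel2, a partner of ubiquitin ligases, had none and was not analysed here.

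The samples were 4 mouse cerebellar tumors, named tumor 1, 2, 4 and 5 after the numbers in their titles, with 1 Affymetrix Mouse Genome 430 2.0 array per tumor. All 4 carry the label Chd7-het, a heterozygous state of the chromatin remodeller gene Chd7, on a mixed CD1xC57BL/6 background. The labels name no other allele, agent, age or sex and no control tissue, so the only comparison the design allows is of each tumor with the other 3. Signals are given on the log2 scale as deposited. A floor was set at a signal of 5.12, below which a transcript was treated as unmeasured, and a filter at 5.87, the median of the mean signals of all probe sets, which a gene's mean had to reach to be tested.

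Chd7 lay above the floor in all 4 tumors, its brighter probe set at 8.63 ± 0.12 (SD, n = 4), and no tumor of another genotype was there to compare. The tissue label was read against 8 genes of the cerebellar granule cell lineage (Atoh1, Barhl1, Pax6, Zic1, En2, Neurod1, Gli1 and Ptch1). Of these, 8 lay above the floor in every tumor. In tumor 1, 4 were higher and 4 lower than the mean of the others. Tumor 1 stood apart from the rest. In limma with Benjamini-Hochberg adjustment over 8498 genes, at an adjusted p under 0.05 and a difference of 2-fold or more, 110 genes passed in tumor 1, or 1.29% (89 higher, 1.05%, and 21 lower, 0.247%). In tumors 2, 4 and 5 no gene passed (0% each), and 496, 47 and 306 genes had an unadjusted p under 0.05. Each p-value rests on the spread between the other tumors, moderated by limma over all genes. A single tumor has no spread of its own to measure, and the p-values cover these 4 tumors only. In bulk tissue, fewer cells of a type and less RNA per cell cannot be told apart.

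The proteins and RNA of this group act at different points. Ndn encodes necdin, a MAGE family protein that restrains growth in postmitotic neurons. Plagl1 (Zac1) and Peg3 encode zinc finger transcription factors, the first known as antiproliferative. Cdkn1c encodes p57Kip2, an inhibitor of cyclin-dependent kinases. Dlk1 encodes a membrane protein of the Notch ligand type, and Meg3, at the same locus on chromosome 12, a long noncoding RNA. Mest encodes a protein with a hydrolase fold, Peg10 a protein derived from a retrotransposon, and Nnat a small membrane protein of the endoplasmic reticulum. Ndn and Magel2 are neighbours on chromosome 7.

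The windows upstream of the start sites of 5 genes are shown because the results below turn on Ndn, Meg3, Plagl1 and Peg3, and because Nnat shares a motif with Ndn but not its pattern. They are RefSeq sequences of build GRCm38.p6 from a promoter table that matched 8 of the 10 genes, and each holds the 250 bases before a start site, written 5′ to 3′. In Ndn (chr7:62348027-62348276, plus strand) and Nnat (chr2:157559828-157560077, plus strand), capitals mark the NRF1 core GCATGCGC, read on both strands, so that overlapping matches on opposite strands merge into one run in Nnat. This motif was chosen after the sequences were read. In Peg3 (chr7:6730420-6730669, minus strand), capitals mark GGGGCCCC, a motif known for PLAGL1 that is the same on both strands. In Plagl1 (chr10:13090582-13090831, plus strand) and Meg3 (chr12:109540746-109540995, plus strand), capitals mark CG dinucleotides, the sites of DNA methylation.
Ndn: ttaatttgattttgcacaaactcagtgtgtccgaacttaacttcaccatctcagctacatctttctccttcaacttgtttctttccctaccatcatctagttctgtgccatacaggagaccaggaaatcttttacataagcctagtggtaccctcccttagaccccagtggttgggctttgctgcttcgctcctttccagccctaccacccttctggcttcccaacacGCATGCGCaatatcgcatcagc
Nnat: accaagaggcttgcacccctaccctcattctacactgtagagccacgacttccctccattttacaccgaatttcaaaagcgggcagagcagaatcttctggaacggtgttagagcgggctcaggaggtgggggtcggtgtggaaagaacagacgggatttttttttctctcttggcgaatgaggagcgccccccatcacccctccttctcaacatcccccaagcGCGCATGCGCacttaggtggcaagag
Peg3: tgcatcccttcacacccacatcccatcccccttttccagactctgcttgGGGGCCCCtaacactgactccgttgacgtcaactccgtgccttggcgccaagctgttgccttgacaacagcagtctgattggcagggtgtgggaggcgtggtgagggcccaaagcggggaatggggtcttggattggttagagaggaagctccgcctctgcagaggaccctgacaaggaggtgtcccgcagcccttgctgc
Plagl1: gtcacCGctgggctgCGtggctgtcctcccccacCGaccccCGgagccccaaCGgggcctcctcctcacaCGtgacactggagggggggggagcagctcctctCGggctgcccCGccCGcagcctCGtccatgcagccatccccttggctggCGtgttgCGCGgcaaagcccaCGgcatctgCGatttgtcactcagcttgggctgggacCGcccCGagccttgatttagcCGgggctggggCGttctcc
Meg3: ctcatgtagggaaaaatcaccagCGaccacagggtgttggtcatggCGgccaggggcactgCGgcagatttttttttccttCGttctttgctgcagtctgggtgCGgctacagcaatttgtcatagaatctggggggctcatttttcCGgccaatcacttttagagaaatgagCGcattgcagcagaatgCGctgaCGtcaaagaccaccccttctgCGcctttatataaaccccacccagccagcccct
Of 32851 windows of the same length in the table, 2.26% held GCATGCGC and 0.889% held GGGGCCCC on either strand. Among the 8 genes with a window, the first was found in Ndn and Nnat and the second in Peg3. On either strand, GCCATNTT, a motif known for YY1, was in 3.91% of all windows, and a long core of the CTCF motif in 0.0335%. Neither was in a window of these genes. The Plagl1 window held 19 CG dinucleotides, a number reached by 19.7% of all windows, that of Meg3 held 10 (37.8%) and that of Ndn 5 (55.6%), and the median window held 6. A second start site of Meg3 had a window with 0. These matches describe letters only, and neither binding nor methylation was measured.

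Of the 9 genes with a probe set, 6 passed the filter (Ndn, Plagl1, Peg3, Mest and Nnat among the paternally expressed, Cdkn1c among the maternally expressed). Meg3 was above the floor in tumors 1 and 2 only, and Dlk1 and Peg10 lay below it in all 4 tumors. Ndn was the 1 gene of 6 that passed the limma test in tumor 1, beside 1.29% of all genes tested. In tumors 2, 4 and 5, 0 of 6 passed in limma, beside 0% of all genes, and the genes with an unadjusted p under 0.05 were 1 (Mest), 0 and 1 (Plagl1). With no filter on the mean, Ndn missed the threshold (adjusted p = 0.0553), and the range over its 14 alternatives was 1.83e-07 to 0.0553.

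**Figure D1:**
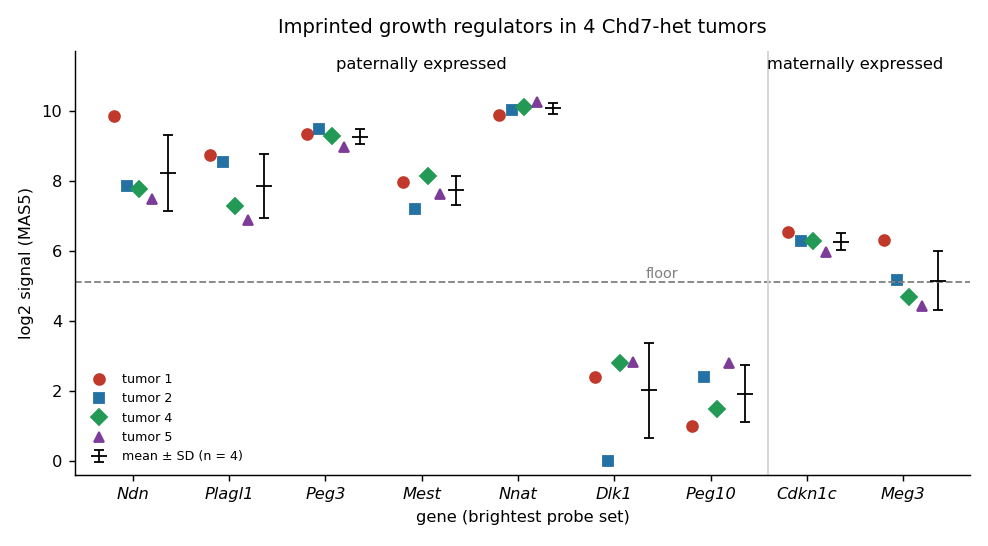
Log2 signal of the brightest probe set of each gene in tumors 1, 2, 4 and 5 (coloured points), with the mean ± SD of the 4 tumors (black) and the floor of 5.12 (dashed). Ndn is highest in tumor 1, at 9.84, Plagl1 is high in tumors 1 and 2 and lower in 4 and 5, and Dlk1 and Peg10 lie under the floor in every tumor; levels of different genes are not comparable.

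Ndn read 9.84 in tumor 1 and 7.84, 7.76 and 7.49 in tumors 2, 4 and 5 on its brightest probe set, 1435382_at, which is 916, 229, 216 and 179.5 on the linear scale. Tumor 1 lay above each of the others, and the other 3 lay close together. The difference of 2.15 (SE 0.19) made Ndn 4.42-fold higher in tumor 1 (limma adjusted p = 0.00264). Its SD over the tumors, 1.08, was reached by 0.424% of all genes past the filter, whose median SD was 0.17.

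Of the 6 Ndn probe sets, 5 were bright, and on each of them tumor 1 was highest, while the order of tumors 2, 4 and 5 differed between sets. Their signals lay between 9.06 and 9.86 in tumor 1 and between 6.72 and 7.91 in the others, and the fold on each ran from 4.42 to 5.06. The bright sets include 3 with the suffix _x_at, whose probes can bind other transcripts, and the remaining 2 lack that suffix. The sixth, 1438978_x_at, read between 0 and 2.51, under the floor in every tumor, and carries no measurement.

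The signals of cell type markers in tumor 1 are given beside those of Ndn. The summed linear signal of 8 Purkinje and inhibitory neuron genes was 3895 in tumor 1 and between 286 and 563 in the others, with Gad2 under the floor in all 4 tumors. That of 10 mature neuron genes was 7315 against 3072 to 3457, and that of 10 oligodendrocyte genes 6651 against 2458 to 3406. Of the lists just named, only the oligodendrocyte list had genes past the filter that went both ways in tumor 1. Calb1, a Purkinje cell calcium-binding protein gene, read 9.45 in tumor 1 and 3.89, 6.02 and 4.60 in tumors 2, 4 and 5. Snap25, a synaptic protein gene, read 11.03 and then 9.17, 9.25 and 9.16. Mbp, the gene of myelin basic protein, read 11.59 and then 8.04, 9.59 and 8.26. Of 7 oligodendrocyte genes past the filter, 4 were higher and 3 lower in tumor 1, the latter being the lineage factors Sox10, Olig2 and Olig1 (-0.80, -0.66 and -0.37). Several of these markers, Calb1 among them, reached the filter only through tumor 1, so counts of them that passed there are not given. Their part in the level of Ndn was not tested.

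The genes whose pattern over the 4 tumors was most like that of Ndn, by the root mean square difference of centred log2 signals among 8497 genes, were Zfpm2, Ugt8a and Gdf10, at 0.146, 0.146 and 0.148. Zfpm2, a cofactor of GATA factors, read 9.45 in tumor 1 and 7.07, 7.10 and 6.77 in the others. Ugt8a, an enzyme of myelin lipid synthesis that is also on the oligodendrocyte list, read 8.60 and then 6.55, 6.60 and 5.94. Gdf10, a growth factor gene of Bergmann glia and on the astrocyte list, read 7.46 and then 5.77, 5.60 and 5.51. The 9 genes of the astrocyte list all passed the filter, and 7 were higher and 2 lower in tumor 1. Their summed linear signal was 7039 there and 5828 to 6784 in the others. Zfpm2, Ugt8a and Gdf10 were picked for their likeness to Ndn, so their high value in tumor 1 follows from the choice and was not tested.

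**Figure D2:**
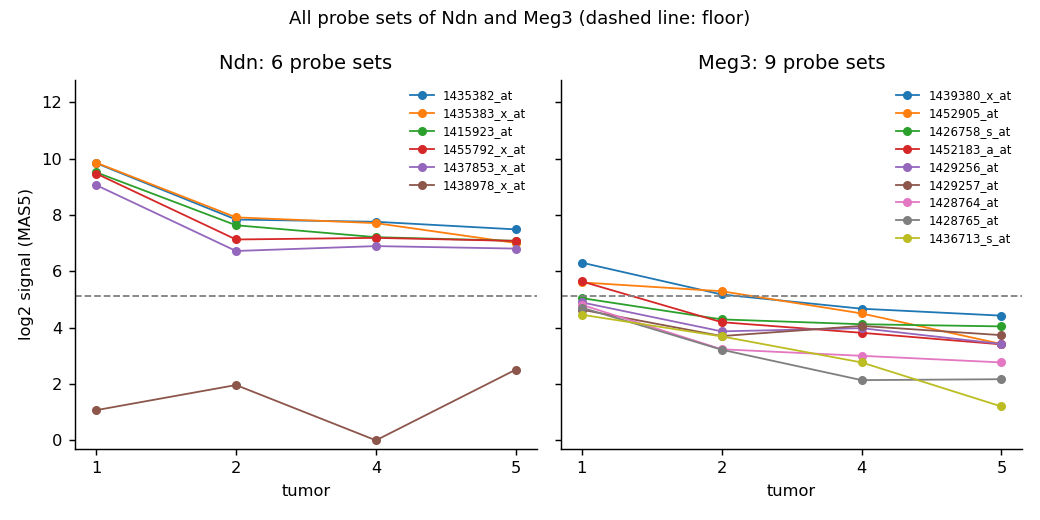
Log2 signal of every probe set of Ndn (left, 6 sets) and Meg3 (right, 9 sets) in the 4 tumors; a line joins the values of 1 probe set and the dashed line is the floor of 5.12. The 5 bright Ndn sets are highest in tumor 1, and the 9 Meg3 sets are highest in tumor 1 too, though 6 of them stay under the floor.

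Meg3, the maternally expressed RNA, was also highest in tumor 1. Its brightest probe set, 1439380_x_at, read 6.31, 5.18, 4.67 and 4.43 in tumors 1, 2, 4 and 5, and tumors 4 and 5 were under the floor. On this set, which carries the suffix _x_at, Meg3 was at least 2.25-fold higher in tumor 1 against the floor. On 1452183_a_at and 1452905_at, also above the floor in tumor 1, the bounds were lower, at 1.44 and 1.35. Tumor 2 was above the floor on 1452905_at too, at 5.29 against 5.61 in tumor 1. Of the 9 Meg3 probe sets, 9 were highest in tumor 1 and 7 lowest in tumor 5. Only 3 were above the floor in tumor 1. The other 6 were below it in every tumor, so their order is that of unmeasured signals.

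The mean of Meg3 missed the filter, so it was not among the genes tested. It passed in limma when no filter on the mean was applied (adjusted p = 0.00284, where 0.728% of 13320 genes passed as higher) and when the highest tumor, instead of the mean, had to reach the filter (adjusted p = 0.0138, where 1.26% of 9187 genes passed as higher). In both fits 2 of the 3 other tumors were raised to the floor, which narrows their spread, and a gene let in by tumor 1 had to be high there. With that second filter and no floor, Meg3 did not pass (difference 1.55, SE 0.44, adjusted p = 0.148).

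The paternally expressed partner at that locus, Dlk1, was unmeasured: its probe set read 2.41, 0, 2.81 and 2.83 in tumors 1, 2, 4 and 5. A change in Dlk1 could not be seen at such signals, so the 2 genes of the locus could not be set against each other. Rian, another maternally expressed noncoding RNA downstream of Meg3, read 7.27 in tumor 1 and 4.82, 4.85 and 4.37 in the others. Tumor 1 was the 1 tumor above the floor, and Rian was at least 4.44-fold higher there. Its other probe set gave 6.27, 3.74, 4.12 and 3.77 in tumors 1, 2, 4 and 5, the same division. Like Meg3, Rian missed the filter on the mean. With the filter on the highest tumor its difference was 2.15 with the floor and 2.59 without. In either fit a gene let in by tumor 1 had to be high there. In the fit with the floor, all the other tumors were also set to the same value. These fits therefore add no support to the signals given.

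Plagl1 divided the tumors differently. It read 8.73, 8.54, 7.26 and 6.89 in tumors 1, 2, 4 and 5 (423, 373, 154 and 119 on the linear scale), so that tumors 1 and 2 were high and tumors 4 and 5 low, with no value between 7.26 and 8.54. Its SD of 0.91 was reached by 0.671% of all genes past the filter. No tumor passed the test against the rest: the difference was 1.16 (SE 0.51) for tumor 1 and -1.29 (SE 0.52) for tumor 5 (limma adjusted p = 0.451 and 0.957).

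The calls on Plagl1 turned on which tumor was left out. Without tumor 2, Plagl1 was 3.13-fold higher in tumor 1 (adjusted p = 0.00316, SE 0.19), in a fit where 2.44% of all genes passed. Without tumor 1 it was 2.76-fold higher in tumor 2 (adjusted p = 0.0120) and 2.02-fold lower in tumor 5 (adjusted p = 0.0347), where 0.342% and 0.554% of all genes passed. Plagl1 rests on a single probe set with the suffix _x_at, so no second set was there to compare. Of 5 genes of choroid plexus, the tissue that makes cerebrospinal fluid, Ttr, the transthyretin gene, read 12.16 in tumor 5 and 3.12, 2.14 and 5.70 in tumors 1, 2 and 4. Folr1 and Kl were above the floor in tumor 5 only, at 6.14 and 5.22, Aqp1 was below it in all tumors, and Clic6 was highest in tumor 1, at 9.15 against 7.11, 6.29 and 8.73. The 5 summed to 5114 on the linear scale in tumor 5, most of it from Ttr, and to 597, 162 and 152 in tumors 1, 2 and 4. Their part in the Plagl1 signal was not tested.

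Peg3, with the GGGGCCCC match shown above, read 9.33, 9.48, 9.28 and 8.96 in tumors 1, 2, 4 and 5 (9.26 ± 0.22, SD, n = 4). Tumor 5 was lowest on 3 of its 3 probe sets, by 0.41, 0.60 and 0.41 from brightest to dimmest. The difference of -0.41 (SE 0.17) on the brightest set did not pass in limma (adjusted p = 0.957). On 1417355_at the tumors read 7.84, 8.03, 7.49 and 7.18, and on 1417356_at they read 6.56, 6.52, 6.07 and 5.97. On 3 of 3 sets tumors 4 and 5 lay below tumors 1 and 2, as with Plagl1, though only narrowly for tumor 4 on the brightest. The spreads of 0.53, 0.84 and 0.58, from brightest to dimmest, were much smaller than the 1.83 of Plagl1.

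Mest read 7.95, 7.18, 8.15 and 7.61 in tumors 1, 2, 4 and 5 (7.72 ± 0.42). Tumor 2 was lowest, with a difference of -0.72 (SE 0.24, limma adjusted p = 0.795), and tumor 4 highest. The order thus did not follow that of Ndn or Plagl1. Nnat, found in neurons and neuroendocrine cells, varied least, at 9.89, 10.02, 10.11 and 10.25 (10.07 ± 0.15). It was lowest in tumor 1, where Ndn was highest, and its largest difference was 0.25 (SE 0.18) in tumor 5 (adjusted p = 0.957). An SD as large as that of Nnat was found in 58.4% of the genes past the filter, against 6.04% for Mest.

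Cdkn1c, the kinase inhibitor, was dim, at 6.54, 6.27, 6.28 and 5.95 (6.26 ± 0.24), above the floor in all tumors. Tumor 1 was highest and tumor 5 lowest, by -0.41 (SE 0.24, limma adjusted p = 0.957), and tumors 2 and 4 read nearly alike. Peg10 read 1.00, 2.41, 1.49 and 2.79 and was unmeasured in every tumor.

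**Figure D3:**
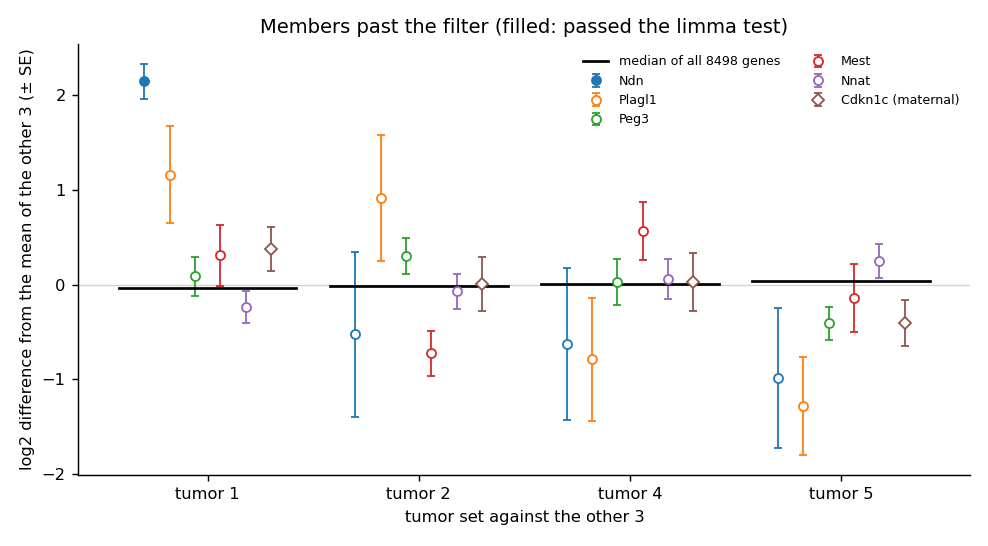
Log2 difference of each tumor from the mean of the other 3 (± SE from limma) for the 6 genes past the filter; filled symbols passed the test, the diamond is the maternally expressed Cdkn1c, and the black line is the median of all 8498 genes. Ndn in tumor 1, at 2.15, is the 1 filled symbol, and 5 of 6 genes lie below 0 in tumor 5.

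Paternally and maternally expressed genes were then set side by side by their differences. In tumor 1 the 5 paternally expressed genes past the filter had a median difference of 0.31 and Cdkn1c, the 1 maternally expressed gene past it, 0.38, with a median over all genes of -0.036. In tumor 5 the values were -0.41 and -0.41 (all genes 0.038), in tumor 2 -0.070 and 0.010 (all genes -0.017), and in tumor 4 0.025 and 0.022 (all genes 0.0037). The paternal minus the maternal median was -0.070, -0.080, 0.0022 and 0.0032 in tumors 1, 2, 4 and 5, with no test, since genes are not replicates. With Meg3 let in by the filter on the highest tumor, it was -0.47 in tumor 1, where the maternal side gained the 1.17 of Meg3. The maternal side rests on 1 or 2 genes, and the value depends on whether Meg3 enters it.

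Over the 6 genes together, 5 were higher in tumor 1 (median difference 0.34, against 43.7% higher among all genes) and 5 were lower in tumor 5 (median -0.41, against 56.9% higher among all genes). These comparisons share tumors and are not independent of each other. In tumors 2 and 4 the counts were 3 higher and 3 lower, and 4 higher and 2 lower. The exception in both tumors 1 and 5 was Nnat.

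**Figure D4:**
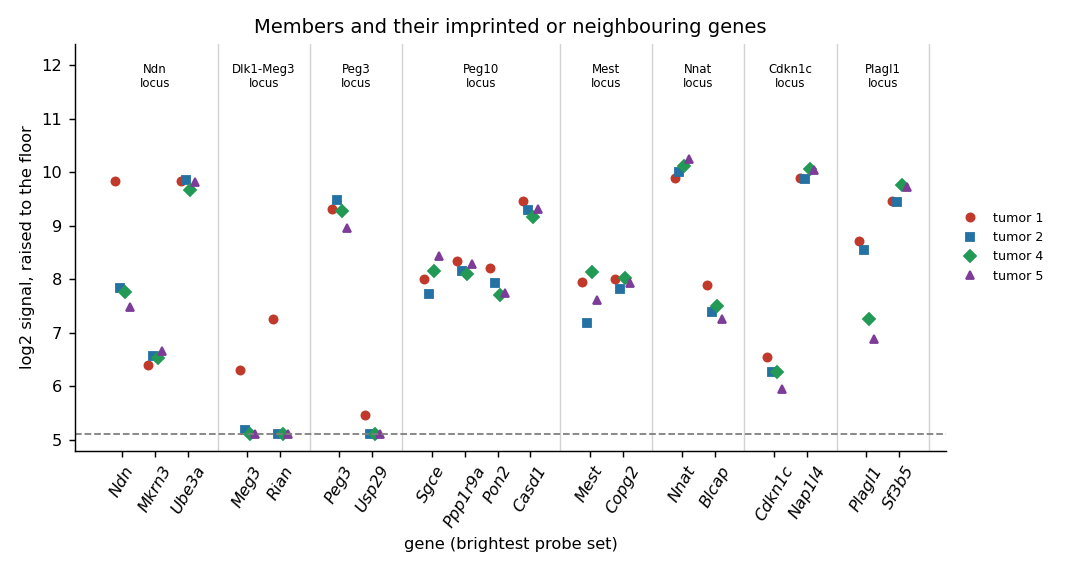
Log2 signal, raised to the floor of 5.12 (dashed), of the described genes beside imprinted or neighbouring genes of the same locus in tumors 1, 2, 4 and 5; each point is 1 tumor. Ndn, Meg3, Rian and Usp29 are highest in tumor 1 and apart from the other 3, while Mkrn3, Ube3a and Copg2 vary little.

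The neighbours of Ndn did not share its pattern. Mkrn3, a paternally expressed gene of the same domain, read 6.40, 6.56, 6.54 and 6.66 and was lowest in tumor 1, with a difference of -0.19 (limma adjusted p = 0.835). Ube3a, the ubiquitin ligase expressed from the maternal copy in neurons, read 9.84, 9.85, 9.67 and 9.82 (difference 0.059, adjusted p = 0.947). Peg12 was under the floor in all 4 tumors.

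At the other loci, neighbours followed each other at some and not at others. Usp29, which lies beside Peg3, was above the floor in tumor 1 only, at 5.47 against 4.52 to 4.59. Sgce, next to Peg10 and expressed from the same paternal side, was well measured at 8.01, 7.72, 8.15 and 8.43, whereas Peg10 was not. Copg2, which overlaps Mest, read 8.01, 7.82, 8.04 and 7.94, the same order as Mest apart from a smaller spread. Blcap, the gene in which Nnat lies, read 7.89, 7.39, 7.50 and 7.26, highest in tumor 1 where Nnat was lowest (differences of 0.51 and -0.24, adjusted p = 0.318 and 0.714). Of the further genes near Peg10, Ppp1r9a, Pon2 and Casd1 were measured in every tumor, and Pon2 was highest in tumor 1 at 8.22 against 7.70 to 7.93 (0.42, adjusted p = 0.418). Nap1l4 near Cdkn1c differed by -0.10 and Sf3b5 near Plagl1 by -0.18 in tumor 1 (adjusted p = 0.907 and 0.813), and Phactr2 near Plagl1 was under the floor.

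Of 22 other paternally expressed genes listed, 14 had a probe set and 8 passed the filter, and of 25 other maternally expressed genes 14 and 9. None of these 8 and 9 passed the limma test in tumor 1. Their median differences in tumor 1 were 0.11 and 0.075. Apart from Rian, Rasgrf1, a neuronal exchange factor of Ras that is paternally expressed, was high in tumor 1 alone: it read 6.91 there and 4.88, 4.84 and 3.82 in the others, and was at least 3.47-fold higher against the floor. It missed the filter on the mean. With the filter on the highest tumor it passed in limma where the floor set all the other tumors to the same value. It did not pass when the floor was dropped as well. Genes let in by that filter had to be high in some tumor.

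Known partners of these proteins were looked at as lists. Among 10 MAGE family members and partners of Magel2 past the filter were the ubiquitin ligase Trim27 and the protease Usp7. None of the 10 passed the limma test in tumor 1, where the largest difference was 0.49, of Magee1. Their median difference was 0.059. Cell cycle partners past the filter numbered 12 and included E2F factors, a family that necdin binds, cyclins, and the retinoblastoma family genes Rb1 and Rbl1. Also among them were cyclin-dependent kinase and inhibitor genes beside Cdkn1c. Of the 12, 1 passed in tumor 1. This was Cdkn1a, which encodes p21 and fell by 1.40 on the log2 scale (SE 0.27, adjusted p = 0.0494), from 7.42, 8.04 and 8.07 in tumors 2, 4 and 5 to 6.44. The call was lost with another floor or none, with no filter or the filter on the highest tumor, with the median over probe sets, without the intensity trend and with quantile normalization (adjusted p from 0.0513 to 0.371). In all, 11 of the 12 were lower in tumor 1 and the median was -0.34. Over all genes 43.7% were higher there and the median was -0.036. The summed signal of 5 proliferation genes was 3216 in tumor 1 and 4193 to 4972 in the others. Their part in these values was not tested. Among 6 further partners were Notch1, Notch2 and the calcium pump Atp2a2 that neuronatin acts on. None of the 6 passed the limma test in tumor 1 (median difference -0.078).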

How the data were processed

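Total RNA of 4 tumors was hybridised to 1 array each. The deposited values come from MAS5, per the submitters' processing notes. Its version and scaling were not given. The deposited values are log2 signals (unit log2); linear signals are their antilogs. The table held 29304 probe sets, 61 of them controls that were left out, and no detection calls. The platform annotation gave a single symbol to 24679.

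The members and lists were chosen with earlier results of these data known. The floor was each array's 40th percentile, taken at its median over the 4 arrays (5.12, or 34.8 linear), and lower signals were set to it. The filter kept probe sets whose mean reached the median mean (5.87, or 58.5 linear), and the brightest of a gene's kept sets stood for it, which left 8498 genes. Each tumor was set against the other 3 in limma 3.58.1 (R 4.3.3, lmFit and eBayes with an intensity trend), assuming that the lone tumor varies like the rest. Adjusted p-values are Benjamini-Hochberg over all genes. The fit was tested on simulated data. The rule for named genes covered all members, their listed neighbours, the genes of other lists that passed or differed most, and the 3 nearest patterns of a member that passed. "At least" marks a fold against the floor. Promoter windows came from RefSeq GRCm38.p6. Alternatives were the floor, the filter, the probe sets used, quantile normalization, the trend and each tumor left out. The number of arrays limits the precision.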

Additional observations from a re-analysis of the deposited data

Results flagged for a closer look

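Of 24 probe sets examined, 4 had a tumor whose gap to the nearest other tumor exceeded Dixon's 95% critical ratio for 4 samples, which chance alone gives in about 1 in 20 groups. In 3 of them it was tumor 1 on Ndn: 9.84 on 1435382_at (gap over range 0.851), 9.47 on 1455792_x_at (0.955) and 9.06 on 1437853_x_at (0.926). These sets read the same gene and are not independent. The fourth was Dlk1 in tumor 2, at 0 (0.851), where all 4 tumors lay under the floor.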

How the results depend on the processing

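No paired analysis was possible because the 4 tumors form a single group. With 1 array per tumor and 4 in all, only large differences can pass. Leaving out a tumor in turn gave 1 to 2 genes called in tumor 1, 0 to 1 in tumor 2, 0 to 0 in tumor 4 and 0 to 1 in tumor 5; the additions were Plagl1. Over all genes the counts in those fits were 177 to 208 in tumor 1 (110 with all 4 tumors), 0 to 29 in tumor 2, 1 to 7 in tumor 4 and 1 to 47 in tumor 5 (0 with all 4 in each). With no filter on the mean 1 gene passed in tumor 1 too, but it was Meg3 and not Ndn (2.15, adjusted p = 0.0553). The filter on the highest tumor gave 2 (Meg3 and Ndn). That filter, alone or with no floor, was chosen after seeing the data. Over the 24 differences of the 6 genes in 4 tumors, 352 values under alternatives were computed. The call changed in 4: it was lost for Ndn as above and gained for Plagl1 in tumors 2 and 5 without tumor 1 (1.47 and -1.01) and in tumor 1 without tumor 2 (1.65). The sign changed in 13, none of them called, among them Ndn in tumor 2, from -0.52 to 0.21 without tumor 1. The largest difference of each gene kept its sign under every alternative run.

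The paternal minus maternal median, which rests on 1 or 2 maternally expressed genes, was not stable. In tumor 1 it was -0.69 with no filter, -0.18 without _x_at and _s_at sets, -0.014 with quantile normalization, -0.47 with the filter on the highest tumor and -0.66 with no floor as well. In tumor 2 the values were 0.16, -0.31, 0.034 and 0.094 under the first 4 of these. In tumor 4 they were 0.20 with no filter, -0.21 with the median over probe sets, -0.11 with quantile normalization, 0.22 with the filter on the highest tumor and 0.33 with no floor as well. In tumor 5 they were 0.27 with no filter, 0.13 without _x_at and _s_at sets, -0.19 with the median over probe sets, -0.073 with quantile normalization and 0.28 with no floor and the filter on the highest tumor. Leaving out a tumor gave -0.22 to 0.12 in tumor 1, -0.077 to 0.16 in tumor 2, -0.11 to 0.0093 in tumor 4 and 0.0045 to 0.020 in tumor 5. Where Meg3, Plagl1 or the unmeasured genes enter or leave the sides, the genes differ by construction. Plagl1, with a single _x_at set, left the paternal side when _x_at and _s_at sets were dropped. Otherwise the cause was not tested. With the filter at the 75th percentile no maternally expressed gene was left, so there was no value.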

Other observations

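Of the 8 other paternally expressed genes past the filter, none passed the limma test in tumor 2 or 4. Those with the largest differences there are given by their values only. Snhg14, the long host transcript downstream of Snrpn in the Ndn domain, read 8.41, 8.91, 8.19 and 8.27 in tumors 1, 2, 4 and 5, highest in tumor 2, and its second bright probe set gave 8.04, 8.86, 7.95 and 7.97. Zdbf2, a paternally expressed gene active in brain, read 7.71, 8.02, 7.15 and 7.17. Tumors 4 and 5 thus lay below tumors 1 and 2, as for Plagl1, but the order within each pair was the reverse. Nap1l5 was lowest in tumor 2, at 7.97 against 8.26 to 8.62. Igf2, the growth factor gene, was lowest in tumor 4, at 6.83 against 8.29, 8.03 and 7.57 in tumors 1, 2 and 5.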
